A study of Mus musculus with 16 samples.

Results

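The unfolded protein response and the early secretory pathway were followed through 38 genes in RNA sequencing of mouse endometrial epithelial organoids, small hollow cultures grown from the cell layer that lines the uterus and its glands. The members were given as a list of symbols, and 37 of the 38 were found among the 23306 genes of the deposited table. The exception, Ern2, has no row in it. All 37 passed the filter on low values, and the lowest value of any member in any library was 208 normalized counts (reads divided by the library's size factor), so no member was dropped. The 16 libraries, M1 to M16, fall into 4 groups of 4. Controls (Tgfbr2 FF) carry a floxed Tgfbr2, the type 2 receptor for TGF-beta, and the conditional knockout (Tgfbr2 cKO) adds the PR-Cre recombinase, which is active in cells that express the progesterone receptor. The floxed allele is shared by every group, whereas Cre is named for the knockout only, so loss of Tgfbr2 and presence of Cre cannot be told apart. Each culture had 2 days without treatment and then 6 days of vehicle, or 2 days of 10 nM estradiol (E2) and 4 days of the same dose joined by 1 µM MPA (medroxyprogesterone acetate, a progestin made by synthesis). The vehicle groups are M1 to M4 (control) and M5 to M8 (cKO), and the E2/MPA groups are M9 to M12 (control) and M13 to M16 (cKO). Strain, age and the number of animals are not in the labels, so a p-value compares a difference with the spread among these libraries only, and that spread may be technical.

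Proteins bound for secretion enter the endoplasmic reticulum (ER) through the Sec61 translocon, fold there with the help of chaperones such as BiP (Hspa5), and leave in COPII vesicles. When unfolded proteins collect, the membrane sensors IRE1 (Ern1), PERK (Eif2ak3) and ATF6 respond: IRE1 splices the Xbp1 messenger, PERK slows translation and favours synthesis of ATF4, and ATF6 is cut to release a transcription factor. XBP1 and ATF6 induce chaperones, ER-associated degradation (ERAD) and transport genes, while ATF4 induces genes of amino acid supply and of the CHOP (Ddit3) arm. Uterine epithelium secretes proteins under ovarian hormones. Gene totals cannot show Xbp1 splicing, ATF6 cleavage or PERK phosphorylation, so only transcript levels are described here.

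With E2/MPA a set of ER chaperone, co-chaperone and ERAD genes was higher than with vehicle, with like estimates in both genotypes. In the main fit, which takes all 16 libraries as unpaired, no sensor and no PERK/ATF4 gene passed as higher. Ern1 and Eif2ak3 passed in some other fits, given below. In the effect averaged over the genotypes, 8 libraries against 8, 11 of 37 members were higher and 1 was lower at an adjusted p under 0.05 (limma across all 16509 genes tested). The members that rose were Sdf2l1 (2.25-fold), Sec23b (1.72-fold), Herpud1 (1.65-fold), Creld2 (1.54-fold), Dnajb9 (1.53-fold), Dnajc3 (1.45-fold), Hsp90b1 (1.34-fold), Calr (1.32-fold), Dnajb11 (1.27-fold), Edem1 (1.25-fold) and Sel1l (1.22-fold). The member that fell was Chac1, to 0.62 of its vehicle level. Over all genes tested, 19.8% passed in the same comparison, 10.8% higher and 9.03% lower, beside 29.7% and 2.70% of the members. The median difference was 0.31 on the log2 scale over the members and -0.002 over all genes, and 32 of 37 members had a positive sign.

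By role, counts and medians were as follows, beside the 10.8% of all genes that were higher and the 9.03% that were lower. No difference between the roles was tested. Among IRE1/XBP1 genes 3 of 5 rose (median log2 difference 0.35), among ATF6 and ER folding genes 5 of 14 (median 0.34), among ERAD genes 2 of 3 (median 0.33) and among translocon, COPII and regulator genes 1 of 8 (12.5%, near the share of all genes, median 0.30). Of the 7 PERK/ATF4 genes none rose and 1 fell (14.3%, median -0.06), and Eif2ak3 among them had a difference of 0.36. Leaving out any single library gave 7 to 15 members higher and 0 to 2 lower. The count of higher members was 7 without M1, M8, M10, M11 or M15.

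**Figure D1:**
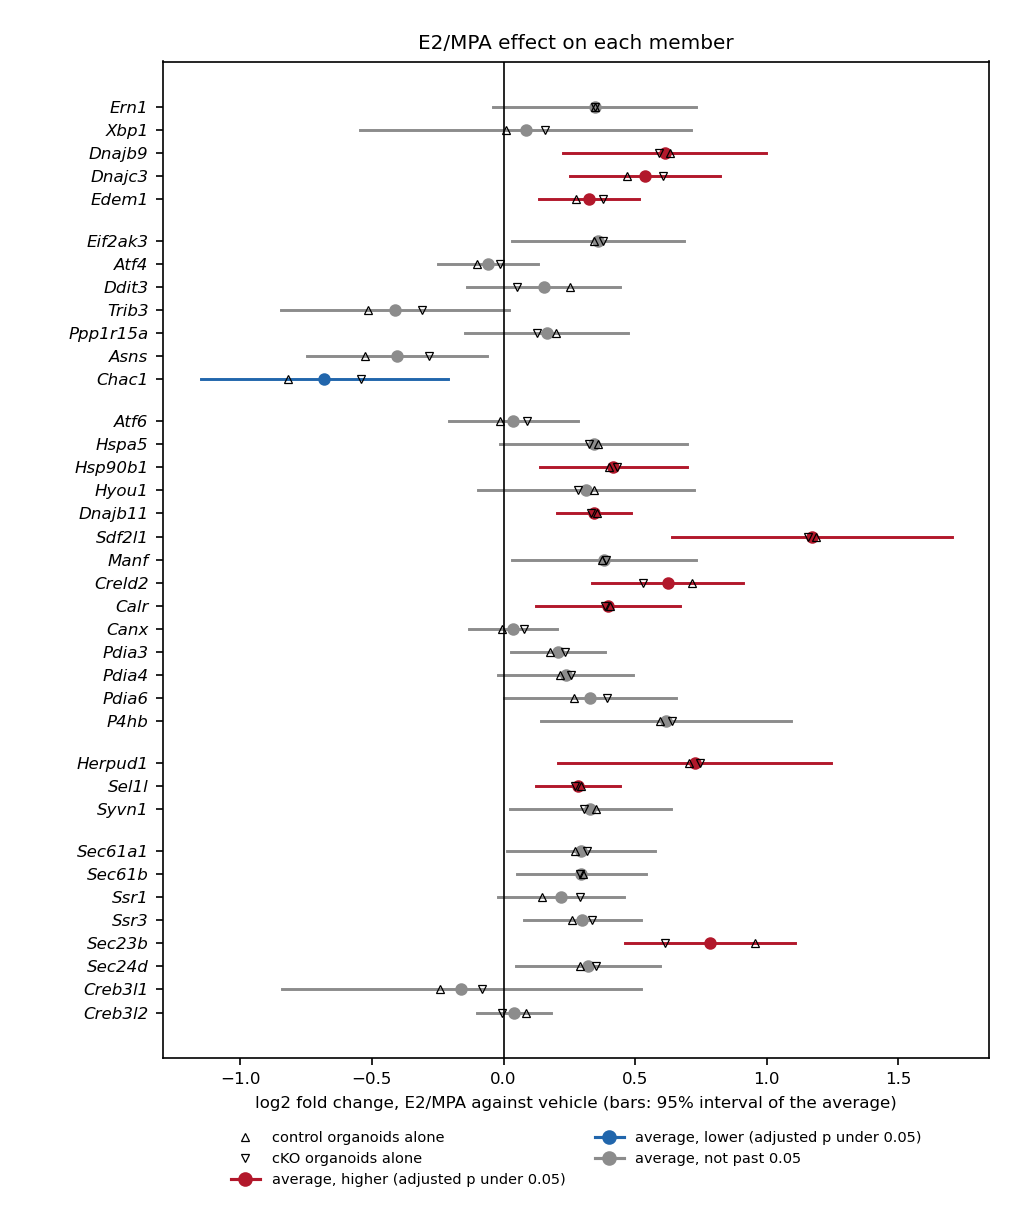
E2/MPA effect on each of the 37 members, as log2 fold change against vehicle; filled circles with 95% intervals are the average of both genotypes (8 libraries against 8), and open triangles are control and cKO organoids alone (4 against 4 each). Red marks the 11 members that rose, blue the 1 that fell, and the triangles of both genotypes lie close together for nearly every member.

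Promoter sequence is shown for members that passed the test in the main fit and for Hspa5, the best known target, which did not. The classical binding elements of ATF6, XBP1 and ATF4 can be looked for in it. Promoters of 300 bases (250 before to 50 after the gene's start) were read from RefSeq in build GRCm38.p6, for 32 members. The sequencing itself was processed on GRCm39. Members are counted here by gene, with a match in any of its promoters, and the share of all is by promoter. The 2 shares thus differ in unit. Both the elements and the members were chosen as known parts of this response, so a higher share among members is no test. The ER stress response element (ERSE: CCAAT and CCACG with 9 bases between them) was found on either strand in 8 of the 32 (25%) and in 0.119% of all 32851 promoters in the table. The second form, ERSE-II (ATTGG and CCACG with 1 base between them), was found in Dnajb11 and Herpud1 (6.25% of members, 0.0365% of all). The C/EBP-ATF element bound by ATF4 (TTGCATCA, which the longer form TGATGCAAT holds on its other strand) was found in Chac1 and Herpud1 (6.25%, against 0.895% of all), and the XBP1 element TGACGTGG in Sec24d alone (3.13%, against 0.676%). Stretches around the matches follow, 5′ to 3′ on the gene's strand, with the matched elements in capitals:
Hspa5, chr2:34772005-34772063, plus strand: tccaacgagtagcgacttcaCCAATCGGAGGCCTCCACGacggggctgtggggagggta
Hsp90b1, chr10:86705513-86705676, minus strand: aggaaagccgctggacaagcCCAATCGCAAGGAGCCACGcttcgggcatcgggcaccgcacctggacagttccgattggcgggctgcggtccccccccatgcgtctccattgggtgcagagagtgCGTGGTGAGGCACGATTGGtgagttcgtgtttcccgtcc
Creld2, chr15:88819500-88819558, plus strand: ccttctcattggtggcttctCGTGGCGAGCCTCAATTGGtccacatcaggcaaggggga
Calr, chr8:84847055-84847113, minus strand: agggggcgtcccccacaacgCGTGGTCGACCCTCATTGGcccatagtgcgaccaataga
Dnajc3, chr14:118937807-118937865, plus strand: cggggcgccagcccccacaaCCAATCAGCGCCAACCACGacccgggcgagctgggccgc
Dnajb11, chr16:22857843-22857871, plus strand: ccggcggcgATTGGCCCACGcctggctgc
Herpud1, chr8:94386297-94386407, plus strand: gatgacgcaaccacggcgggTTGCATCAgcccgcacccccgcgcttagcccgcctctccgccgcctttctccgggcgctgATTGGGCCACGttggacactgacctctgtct
Chac1, chr2:119351029-119351076, plus strand: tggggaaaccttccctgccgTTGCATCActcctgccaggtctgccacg
Hsp90b1 holds 2 such elements in opposite orientations, and in Creld2 and Calr the match lies on the other strand, so it reads CGTGG first. Counted from the gene's start, the match begins at position -65 in Hspa5 and 7 bases after the start in Dnajb11. Herpud1 holds both an ERSE-II and a C/EBP-ATF match, beginning at positions -52 and -112. Canx, Pdia6 and Syvn1 also hold an ERSE. Of the 10 members with an ERSE or ERSE-II match, 6 rose with E2/MPA (median log2 difference 0.37). Of the 22 with neither, 5 rose and 1 fell (median 0.26). Over all genes tested, 10.8% were higher. The 22 hold all 7 PERK/ATF4 genes (median -0.06), so the 2 sets of members differ by role too. No difference between the sets was tested. Sdf2l1 and Sec23b, the members with the largest folds, had no match to these letters in the 300 bases. A match is a description of the letters, and binding was not measured.

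The sensors themselves were present in every library, and none of them passed the test in the main fit. Values are listed here and below as normalized counts in library order, 4 per group. Ern1, the IRE1 kinase and endonuclease, had 4940, 6518, 5621 and 3012 in control and 6135, 5681, 5151 and 3678 in cKO vehicle libraries, and 6935, 7134, 7061 and 4090 in control and 7923, 5790, 7907 and 4759 in cKO E2/MPA libraries. The lowest library of each group was M4, M8, M12 and M16, and the groups overlapped (log2 difference 0.35, SE 0.18, adjusted p = 0.197). Eif2ak3 (PERK) had 651, 906, 811 and 470 in control and 813, 869, 846 and 491 in cKO vehicle libraries, and 890, 1024, 958 and 670 in control and 1042, 970, 1070 and 772 in cKO E2/MPA libraries. Its difference was 0.36 (SE 0.15, adjusted p = 0.115), again with M4, M8, M12 and M16 lowest. Without those 4 libraries both passed as higher with E2/MPA, Ern1 by 0.33 (adjusted p = 0.0246) and Eif2ak3 by 0.29 (adjusted p = 0.0191), and both also passed with M1 and M9 left out as well. Atf6 was flat, with 1921, 2339, 2081 and 1298 in control and 1966, 2080, 1843 and 1699 in cKO vehicle libraries, and 1880, 2205, 2015 and 1393 in control and 1952, 2058, 2175 and 1877 in cKO E2/MPA libraries. Its difference was 0.04 (95% interval -0.21 to 0.28). On a per-kilobase scale Ern1 averaged 706 normalized counts per kb of exon over all libraries, Atf6 208 and Eif2ak3 137, the lowest of all 37 members.

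Xbp1, the transcription factor made from the messenger that IRE1 splices, was among the more abundant members (3136 normalized counts per kb) and did not pass the test. It had 8221, 16214, 13448 and 3139 in control and 11749, 13259, 12776 and 4789 in cKO vehicle libraries, and 9975, 9354, 8739 and 7100 in control and 11269, 9723, 12112 and 11116 in cKO E2/MPA libraries. Vehicle libraries ranged from 3139 in M4 to 16214 in M2, and the E2/MPA libraries all lay inside that range. The averaged difference was 0.08 (SE 0.29, 95% interval -0.54 to 0.71, adjusted p = 0.879). That estimate depended on which libraries were kept: without M1, M4, M8, M9, M12 and M16, the libraries with the most stromal transcripts, Xbp1 was lower with E2/MPA (-0.45, adjusted p = 0.00146). Its targets Dnajb9, Dnajc3 and Edem1 rose.

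Dnajb9 (ERdj4, ENSMUSG00000014905), a BiP co-chaperone and established XBP1 target, had 799, 1443, 1350 and 567 in control and 1047, 994, 1008 and 684 in cKO vehicle libraries, and 1412, 1902, 1699 and 1120 in control and 1472, 1390, 1521 and 1187 in cKO E2/MPA libraries. In it, 4 of 8 E2/MPA libraries were above every vehicle library, and M2 and M3 overlapped the other 4 (log2 difference 0.61, SE 0.18, adjusted p = 0.0277). Dropping M1, M8, M10, M11, M13 or M15 ended the call, at a highest adjusted p of 0.0610. Dnajc3 (p58IPK, ENSMUSG00000022136), another co-chaperone, had 2280, 3986, 3710 and 2055 in control and 2400, 2753, 2481 and 2026 in cKO vehicle libraries, and 3970, 4377, 4276 and 3417 in control and 3621, 3854, 4217 and 3043 in cKO E2/MPA libraries. It rose by 0.54 (SE 0.13, adjusted p = 0.0111). In cKO organoids all 4 E2/MPA libraries were above all 4 vehicle libraries, and in control organoids M2 and M3 overlapped them. Edem1 (ENSMUSG00000030104), which hands misfolded glycoproteins to ERAD, had 1593, 2188, 2110 and 1605 in control and 2101, 1902, 2172 and 1559 in cKO vehicle libraries, and 2267, 2320, 2275 and 2110 in control and 2667, 2364, 2834 and 2152 in cKO E2/MPA libraries. In 6 of 8 cases an E2/MPA library was above every vehicle library (difference 0.33, SE 0.09, adjusted p = 0.0192).

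Among the ER folding genes the largest change was in Sdf2l1 (ENSMUSG00000022769), an ER-resident partner of Dnajb11 that is induced by ER stress. It had 261, 661, 773 and 314 in control and 519, 520, 438 and 268 in cKO vehicle libraries, and 889, 1531, 1223 and 683 in control and 1002, 1066, 1132 and 649 in cKO E2/MPA libraries. M1, M4 and M8 were lowest and M10 highest, and 6 of 8 E2/MPA libraries exceeded every vehicle library. The averaged difference was 1.17 (SE 0.25, 95% interval 0.64 to 1.70, adjusted p = 0.00441). Dnajb11 (ERdj3, ENSMUSG00000004460), a co-chaperone that binds unfolded clients, changed less and with little spread. It had 953, 1259, 1290 and 1040 in control and 1195, 1089, 1027 and 1067 in cKO vehicle libraries, and 1381, 1540, 1474 and 1380 in control and 1509, 1296, 1408 and 1302 in cKO E2/MPA libraries. It was the only member whose 8 E2/MPA libraries all lay above all 8 vehicle libraries (2.44% of all genes tested did so, and 1.08% lay wholly below). The lowest E2/MPA value, 1296 in M14, was just above the highest vehicle value, 1290 in M3, and the difference was 0.34 (SE 0.07, adjusted p = 0.00228).

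Creld2 (ENSMUSG00000023272), a stress-inducible ER protein of the disulfide isomerase type, had 541, 742, 741 and 534 in control and 709, 740, 708 and 506 in cKO vehicle libraries, and 920, 1385, 1179 and 774 in control and 1006, 1005, 1094 and 741 in cKO E2/MPA libraries. Vehicle libraries stayed at or below 742 and 7 of 8 E2/MPA libraries were above that value (difference 0.62, SE 0.13, adjusted p = 0.00481). Hsp90b1 (GRP94, ENSMUSG00000020048), the HSP90 paralogue of the ER, had 5729, 8671, 8836 and 5624 in control and 6412, 6934, 7112 and 4699 in cKO vehicle libraries, and 8521, 11174, 9891 and 8006 in control and 7724, 9731, 9631 and 6807 in cKO E2/MPA libraries. Its difference was 0.42 (SE 0.13, adjusted p = 0.036), with M2 and M3 above 4 of the 8 E2/MPA libraries. Exons of 1810014B01Rik overlap it on the opposite strand, and whether reads were counted by strand is not stated. Calr (calreticulin, ENSMUSG00000003814), the soluble lectin chaperone, had 11214, 15726, 16214 and 9806 in control and 16290, 15136, 14898 and 9923 in cKO vehicle libraries, and 16608, 18800, 18597 and 14873 in control and 20063, 18196, 19464 and 14973 in cKO E2/MPA libraries. It rose by 0.40 (SE 0.13, adjusted p = 0.0414). Dropping M1, M4, M5, M8, M10, M11, M14 or M15 ended the Hsp90b1 call, at a highest adjusted p of 0.0779. Dropping M1, M4, M7, M8, M9, M10, M11, M13, M14 or M15 ended that on Calr, and the highest adjusted p was 0.0860.

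Hspa5 (BiP), the master chaperone of the pathway, did not pass the test in the main fit. Its values were 10689, 18421, 17317 and 9694 in control and 14742, 16649, 13814 and 9557 in cKO vehicle libraries, and 15724, 21884, 19490 and 13290 in control and 17133, 19103, 18961 and 12919 in cKO E2/MPA libraries. In 4 of 8 cases an E2/MPA library was above every vehicle library, but M12 and M16 were below M2, M3, M5, M6 and M7 (difference 0.34, SE 0.17, 95% interval -0.01 to 0.70, adjusted p = 0.165). The estimate is as large as that of Dnajb11, and its SE is 0.17 against 0.07. With the replicate block the SEs were 0.10 and 0.05, and Hspa5 passed as higher (limma, adjusted p = 0.0143). The other 7 folding genes that were not called, Atf6 aside, were Hyou1, Manf, Canx, Pdia3, Pdia4, Pdia6 and P4hb. They all had positive differences, from 0.04 in Canx (calnexin) to 0.62 in P4hb (protein disulfide isomerase, adjusted p = 0.0656). With the replicate block, where 38.5% of all genes passed, each of them except Canx passed as higher. P4hb was the most abundant member per length, at 7544 normalized counts per kb over all libraries, followed by Calr at 5442 and Hspa5 at 3686.

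**Figure D2:**
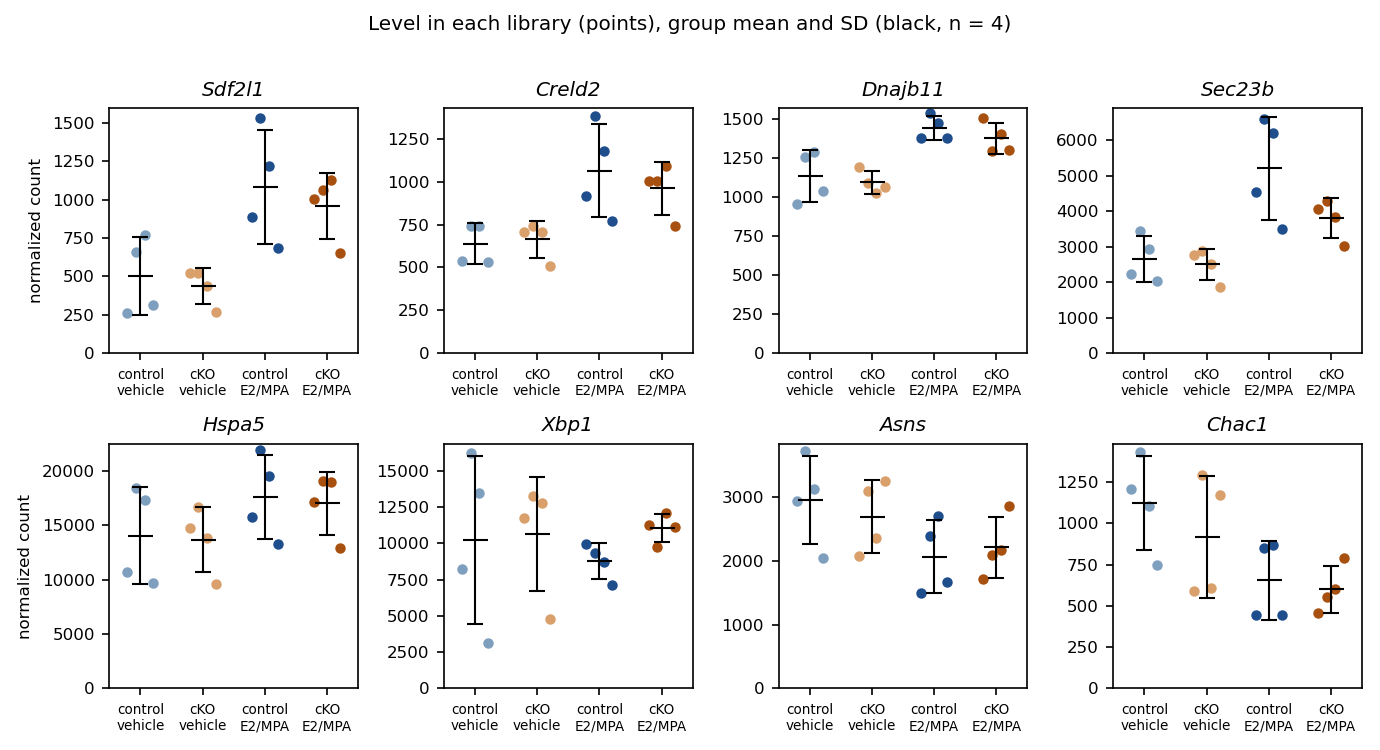
Normalized counts of 8 members in each of the 16 libraries (points, in library order within a group), with the group mean and SD (black, n = 4). Sdf2l1, Creld2, Dnajb11 and Sec23b are higher in the E2/MPA groups, Hspa5 overlaps, Xbp1 spreads from 3139 to 16214 under vehicle, and Asns and Chac1 are lower on average with E2/MPA.

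Of the 3 ERAD members 2 rose. Herpud1 (ENSMUSG00000031770), a membrane scaffold of the ubiquitin ligase, had 860, 1809, 1296 and 550 in control and 866, 1161, 807 and 796 in cKO vehicle libraries, and 1424, 2679, 2293 and 899 in control and 1403, 1496, 1758 and 1396 in cKO E2/MPA libraries. M10 and M11 stood highest, M12 lay at the vehicle level, and M2 was above 6 E2/MPA libraries (difference 0.73, SE 0.24, adjusted p = 0.0481). That call was the least stable of the 12, ended by dropping M1, M4, M5, M7, M8, M9, M10, M11, M13, M14, M15 or M16, at a highest adjusted p of 0.100. Sel1l (ENSMUSG00000020964), the adaptor of the ligase, had 1598, 1926, 1727 and 1656 in control and 1766, 1740, 1558 and 1736 in cKO vehicle libraries, and 1848, 2607, 2322 and 1783 in control and 2003, 2117, 2152 and 1943 in cKO E2/MPA libraries. Its difference was small and tight, 0.28 (SE 0.07, adjusted p = 0.015). Syvn1 (HRD1), the ligase itself, had a like difference of 0.33 with a wider SE of 0.14 (adjusted p = 0.124).

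In the transport group the change was in Sec23b (ENSMUSG00000027429), an inner coat subunit of COPII vesicles that leave the ER. It had 2224, 3452, 2926 and 2038 in control and 2760, 2874, 2507 and 1878 in cKO vehicle libraries, and 4535, 6602, 6211 and 3503 in control and 4075, 4297, 3840 and 3031 in cKO E2/MPA libraries. The level in 7 of 8 E2/MPA libraries exceeded every vehicle library, and M10 and M11 were the highest (difference 0.78, SE 0.15, 95% interval 0.46 to 1.11, adjusted p = 0.00228). Sec24d, the cargo-selecting COPII subunit, had a difference of 0.32 (adjusted p = 0.095). The translocon subunits Sec61a1 and Sec61b and the translocon-associated proteins Ssr1 and Ssr3 had differences of 0.22 to 0.30, none past the threshold in the main fit (Ssr3 adjusted p = 0.0564). With the replicate block Sec24d, Sec61a1, Sec61b, Ssr1 and Ssr3 passed as higher, as did Syvn1. Creb3l2, a membrane-bound transcription factor of secretory cells, was flat (0.04).

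Creb3l1 (OASIS), its relative, ran against the other members across libraries. It had 595, 288, 400 and 1019 in control and 300, 266, 285 and 807 in cKO vehicle libraries, and 401, 346, 379 and 685 in control and 240, 290, 272 and 769 in cKO E2/MPA libraries. M4, M8, M12 and M16 were the highest of their groups, the same libraries that were lowest for most members, and E2/MPA made no difference that passed the test (-0.16, SE 0.32, adjusted p = 0.777).

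No gene of the PERK/ATF4 arm passed as higher in the main fit, and Eif2ak3, given above, did so only in other fits. Atf4, whose protein is made when PERK or another kinase slows translation, had 4772, 5426, 5028 and 3995 in control and 4204, 5162, 4219 and 4994 in cKO vehicle libraries, and 4070, 5152, 5098 and 3674 in control and 4376, 4206, 4542 and 5266 in cKO E2/MPA libraries. The groups overlapped fully (difference -0.06, 95% interval -0.25 to 0.13, adjusted p = 0.708). Ddit3 (CHOP), a pro-apoptotic factor induced by ATF4, was near the bottom of the levels with 228, 251, 272 and 220 in control and 219, 363, 239 and 241 in cKO vehicle libraries, and 243, 411, 333 and 208 in control and 244, 283, 286 and 269 in cKO E2/MPA libraries. Its difference was 0.15 (SE 0.14, adjusted p = 0.481), and exons of Mars overlap it on the opposite strand. Ppp1r15a (GADD34), which reverses the translational block, differed by 0.16 (adjusted p = 0.476).

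Chac1 (ENSMUSG00000027313), a glutathione-degrading enzyme induced by ATF4, was the only member that fell in the main fit. It had 1208, 1432, 1108 and 751 in control and 589, 1294, 606 and 1173 in cKO vehicle libraries, and 444, 854, 872 and 448 in control and 457, 553, 601 and 791 in cKO E2/MPA libraries. Among control libraries M4, at 751 under vehicle, was below M10 and M11 with E2/MPA and the rest did not overlap, while M5 and M7 under vehicle were as low as the treated cKO libraries (difference -0.68, SE 0.22, adjusted p = 0.041). Dropping M1, M2, M3, M6, M8, M9, M12, M13, M14 or M15 ended the call, at a highest adjusted p of 0.0852. Asns, asparagine synthetase, and Trib3, a pseudokinase that restrains the response, are targets of ATF4 too. Their differences were -0.41 (adjusted p = 0.0906) and -0.41 (adjusted p = 0.174), and neither passed the test in the main fit. Without M4, M8, M12 and M16 Asns passed as lower (-0.46, limma, adjusted p = 0.0414). With the replicate block both passed as lower (limma, adjusted p = 0.00694 for Asns and 0.0196 for Trib3).

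Wider lists grouped by function gave the following counts, to be read beside 10.8% of all genes higher and 9.03% lower. Of 16 amino acid response and ATF4 target genes none rose and 5 fell (31.2%, median -0.25). Those with the lowest adjusted p were Stc2, a stress-induced glycoprotein (-0.56), Slc7a11, the cystine transporter (-0.67), Phgdh, the first enzyme of serine synthesis (-0.42), and Nupr1 (-0.36). Of 19 further ER folding and redox genes 2 rose, Ero1l, the oxidase that recharges disulfide isomerase (0.45), and Erp29 (0.58), which is 10.5% and so at the share of all genes, with a median of 0.26. Of 16 further ERAD genes 6 rose (37.5%), among them Selenok (0.43), Edem3 (0.26), Aup1 (0.22) and Derl1 (0.27), with a median of 0.21.

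Of 19 translocon, signal peptidase and oligosaccharyltransferase genes 4 rose and none fell (21.1%, median 0.23): Sec11a, a catalytic subunit of signal peptidase (0.88), Stt3b (0.26), Ostc (0.39) and Tram1 (0.41). Of 31 COPII, COPI and cargo transport genes tested 10 rose (32.3%, median 0.21), led by Sec23a, the paralogue of Sec23b (0.30), Mia3, the receptor that loads bulky cargo (0.62), Sec24b (0.16) and Sar1a, the GTPase that starts the coat (0.15). Of 3 secretory transcription factors tested, Creb3 rose (0.45). The values in parentheses are averaged log2 differences, and all of those named passed the test over all genes.

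Each genotype alone gave fewer calls, with 4 libraries against 4. In control organoids 4 members rose with E2/MPA and none fell, where 8.9% of all genes passed, 5.39% higher and 3.51% lower. They were Sec23b (0.96, adjusted p = 0.0119), Dnajb11 (0.36, adjusted p = 0.0276), Creld2 (0.72, adjusted p = 0.0288) and Sdf2l1 (1.19, adjusted p = 0.0485), and 12 of the 37 had an unadjusted p under 0.05. The count was 1 without M1, M4, M10 or M11, and 0 when the control libraries were fitted alone. Each of these 4 exclusions ended the calls on Dnajb11 and Creld2, whose highest adjusted p over all alternatives was 0.124 and 0.105. The Sdf2l1 call ended on dropping M1, M4, M5, M6, M7, M9, M10, M11, M13, M14 or M15, and its highest adjusted p was 0.159.

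In cKO organoids 0 members passed in the main limma fit, where 4.19% of all genes passed, 2.71% higher and 1.48% lower. The closest was Dnajb11 (0.33, adjusted p = 0.0604), 11 members had an unadjusted p under 0.05, and DESeq2 on the recovered reads called 3. Limma called 6 members higher when the cKO libraries were fitted alone and 6 with array weights. Of all genes, 7.6% passed with DESeq2, 5.32% with the cKO libraries alone and 10.2% with array weights. The 3 members called by DESeq2 thus lie near the share of all genes. Leaving out M1, M3 or M4 gave 1 member. The estimates of the 2 genotypes, which come from separate libraries, lay close together for many members, with a median absolute gap of 0.06. Sdf2l1 differed by 1.19 in control and 1.16 in cKO organoids, Herpud1 by 0.71 and 0.75, Dnajb9 by 0.63 and 0.59, and Hspa5 by 0.36 and 0.33. They lay further apart in Sec23b (0.96 and 0.61), Chac1 (-0.82 and -0.54), Asns (-0.53 and -0.28) and Creld2 (0.72 and 0.53). Across the 37 members the signs were the same in 34 and the Pearson correlation was 0.960, and over all genes tested it was 0.827. Genes are not independent replicates, and the correlation describes these libraries only.

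The difference between the genotypes' responses was tested directly. None of the 37 members passed, and none had an unadjusted p under 0.05, where 309 of all genes did and 0 passed after adjustment (0%). The largest estimate was for Sec23b, -0.35 in cKO relative to control. Its E2/MPA libraries were 3503 to 6602 in control and 3031 to 4297 in cKO. Half-widths of the 95% intervals had a median of 0.58 over the members, which sets the size of response difference that these libraries could show.

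**Figure D3:**
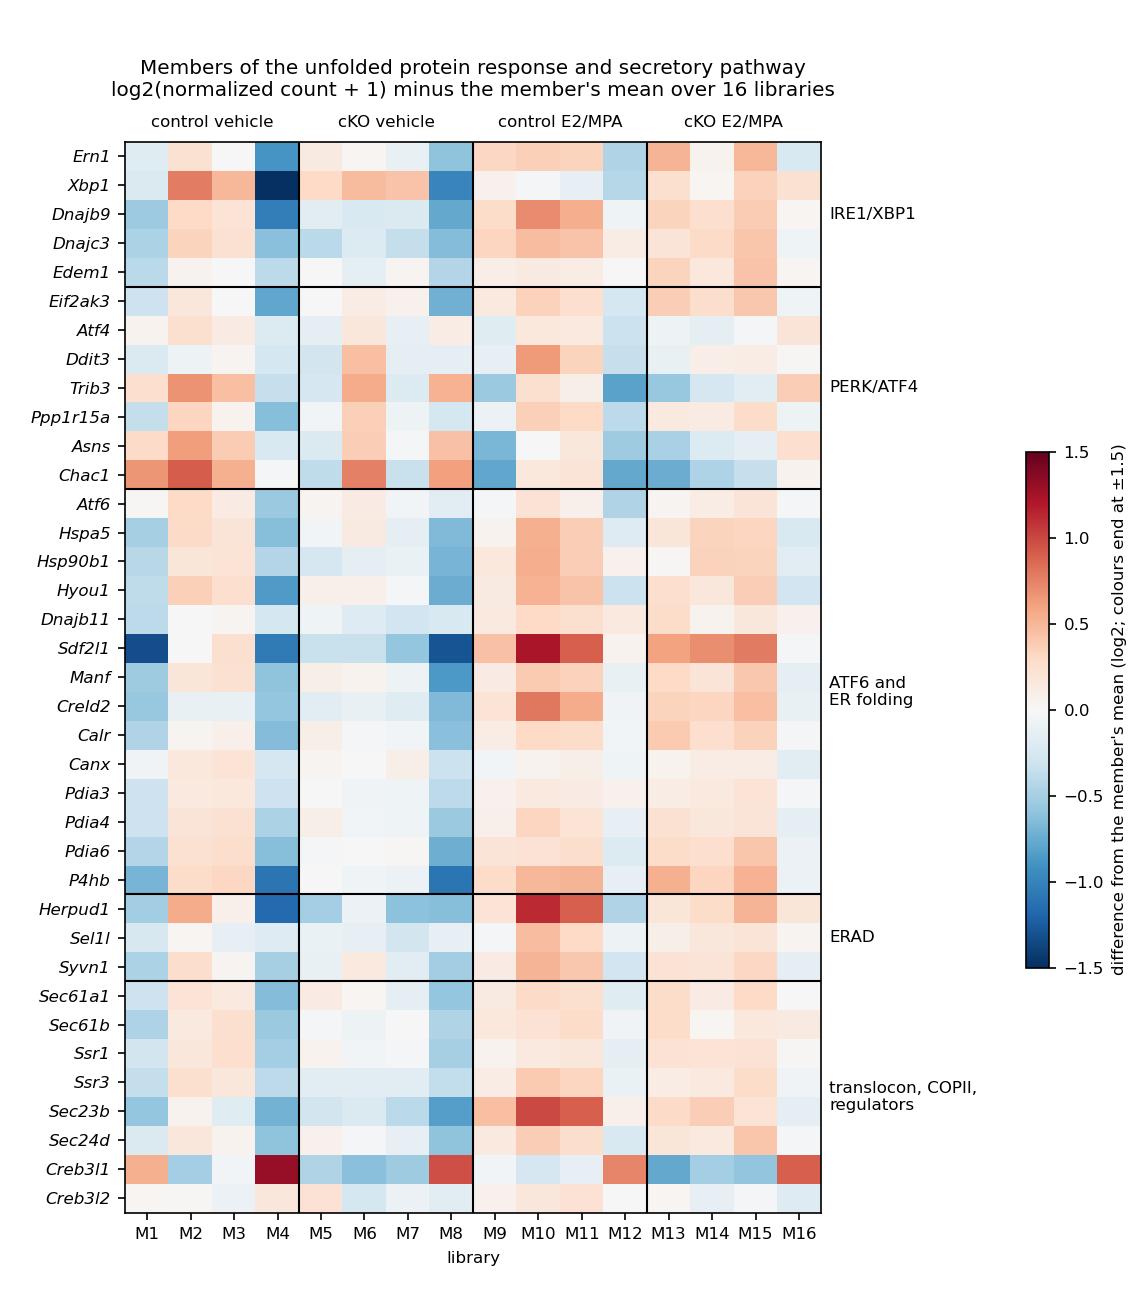
Level of the 37 members (rows, grouped by role) in the 16 libraries (columns, grouped), as log2(normalized count + 1) minus the member's mean over all libraries; colours end at 1.5 in either direction. M4, M8, M12 and M16 are the palest or bluest columns of their groups for most members, Creb3l1 is reddest there, and the PERK/ATF4 rows Trib3, Asns and Chac1 follow another pattern.

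Between cKO and control organoids no member was called with all 16 libraries in the fit. Under vehicle 0 of 37 members differed between cKO and control (0% of all genes passed, and 984 of them had an unadjusted p under 0.05), and the members' median difference was -0.03. The extremes were -0.48 (Creb3l1) and 0.19 (Xbp1), and the lowest adjusted p was 0.888. Under E2/MPA 0 members differed (1 of all genes, 0.00606%, passed, and 1794 had an unadjusted p under 0.05), with a median of 0.001 and a lowest adjusted p of 0.475. No member had an unadjusted p under 0.05 in either comparison. Without M1, M4, M8, M9, M12 and M16, which hold the most stromal transcripts, some members passed as lower in cKO, as given below. They were 6 under vehicle (median over members -0.22) and 4 under E2/MPA (median -0.15), where 3.59% and 8.44% of all genes passed. With 95% intervals of about 0.41 on either side, 34 of the 37 members had an interval within 1 log2 unit of zero under vehicle and 35 under E2/MPA. Tgfbr2 itself, counted over the whole gene, was 4852 to 8054 in control and 3520 to 5439 in cKO vehicle libraries (log2 difference -0.46, adjusted p = 0.833). With E2/MPA it was 4103 to 7794 in control and 3568 to 5526 in cKO libraries (-0.28, adjusted p = 0.690), and the genotypes overlapped under both treatments. Under vehicle M8 alone of the cKO libraries reached the control range, and M5, M6 and M7 were at 3520 to 4304 (limma, unadjusted p = 0.0456). With E2/MPA M14 and M16 reached it. Which exons Cre removes is not stated, so the gene total is a partial check of the deletion.

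The libraries of a group were not alike. M4 was the lowest of its group for 31 of the 37 members, M12 for 34, and M8 and M16 for 28 each. The mean log2 level of the 14 ATF6 and ER folding genes was 11.5 in M4 and 11.6 in M1, against 12.3 in M2 and M3, in the control vehicle group. It was 11.5 in M8 against 12.0 to 12.1 in M5 to M7. With E2/MPA it was 12.0 in both M12 and M16 and 12.2 to 12.5 in the other 6 libraries. The epithelial markers Epcam, Cdh1, Krt8, Krt18, Krt19, Cldn7 and Elf3 were at 5273 or more in every library, and Foxa2, a marker of gland cells, at 70.0 to 243.

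Stromal transcripts moved with this pattern. The summed level of 10 stromal markers ran from 777 to 47924 over the control libraries given vehicle and from 1551 to 41560 over those given E2/MPA. In cKO libraries the sums were 1401 to 18670 with vehicle and 1923 to 34599 with hormone. Postn was at 0 in 3 libraries, Lum in 2 and Hoxa10 in 1, and Col1a1 was at 326 or more in all. The highest stromal mean of each group was that of M4, M8, M12 or M16, and M1 and M9 came next in the control groups. Of the 10, Postn passed the test between E2/MPA and vehicle (higher, 5.14 on the log2 scale), and the median difference was 0.64. Summed macrophage markers (6 genes) reached 14748 in M4 (control vehicle) and 19526 in M12 (control E2/MPA). The other control libraries were at 2412 to 4736 and the cKO libraries at 1916 to 4118. Lyz2 alone reached 15703 in its highest library. No macrophage marker passed the test. None of 5 smooth muscle and 2 endothelial markers tested passed. Upk3b, 1 of 3 mesothelial markers, was higher (1.80), and Elf3, 1 of 8 epithelial markers, lower (-0.49). Sdc1, from a plasma cell list, was lower too (-0.68). It was at 2562 or more throughout, while Ighm of that list had a median of 0.41 and Jchain, Mzb1 and Igha had no row. Sdc1 is therefore no measure of plasma cells here. The epithelial mean was no lower in those libraries: it was 13.2 in M4, M8 and M16 and 12.7 to 13.1 in M9 and M12, where the other libraries ran from 12.5 to 13.1. In bulk RNA, fewer cells of a type and less RNA per cell cannot be told apart.

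**Figure D4:**
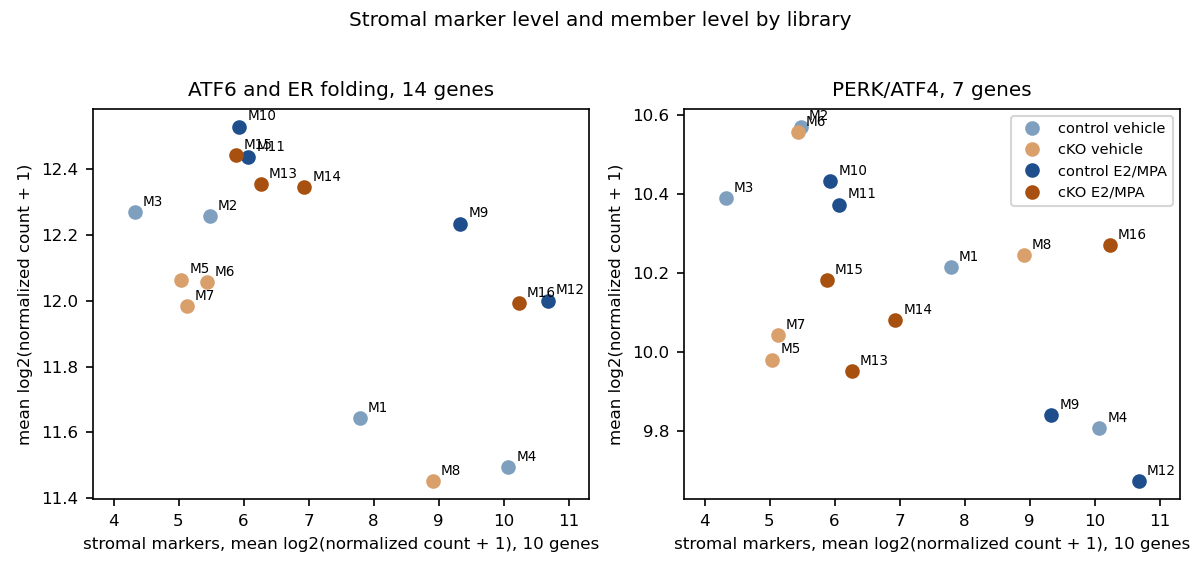
Each point is 1 library, coloured by group. The x axes give the mean log2(normalized count + 1) of 10 stromal markers and the y axes the same mean for the 14 ATF6 and ER folding members (left) and the 7 PERK/ATF4 members (right); M4, M8, M12 and M16 lie low for their groups on the left, and the libraries with few stromal transcripts run from 4.32 to 5.48 under vehicle and from 5.88 to 6.94 with E2/MPA, so few libraries of the 2 treatments share a stromal level.

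More members passed in the averaged hormone effect without the stroma-rich libraries, while the members' median difference was smaller. Leaving out M4, M8, M12 and M16 gave 16 members higher and 2 lower, and all 12 calls above were among them (median 0.26, where all libraries gave 0.31). Leaving out M1 and M9 as well, a choice made after seeing the data, gave 21 higher and 2 lower, including 11 of the 12 calls, with Chac1 lost and Asns and Xbp1 lower (median 0.22). Hspa5 was among the 21. Of all genes, 22.4% passed in either direction without the first 4 libraries, and 24.9% without all 6. With those 6 libraries out the genotype comparisons gave calls too, resting on 2 control and 3 cKO libraries an arm: 6 members were lower in cKO under vehicle (Dnajb9, Dnajc3, Sdf2l1, P4hb, Herpud1 and Ssr3) and 4 under E2/MPA (Dnajb9, Creld2, Herpud1 and Sec23b). Of all genes, 3.59% passed in these comparisons under vehicle and 8.44% under E2/MPA, so the 4 members under E2/MPA lie near the share. The part of stromal RNA in the genotype comparisons was not tested.

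Variation across the 16 libraries is given as a description. The genes most like Hspa5, by Pearson correlation of log2 levels over 16 libraries among all genes tested, were Gmppa (0.976), Fkbp11 (0.974), Syvn1 (0.974), Ppp2r2c, Atl2, Il5ra, Xrcc1, 4930539E08Rik, Hyou1 (0.969) and Cyp2s1 (0.968). Of these 10, Syvn1 and Hyou1 are members. Those libraries share the treatment and the stromal pattern described above. The 7 PERK/ATF4 members spread widely: the correlation was 0.927 for Eif2ak3, 0.893 for Ppp1r15a, 0.666 for Ddit3, 0.264 for Atf4, 0.04 for Trib3, -0.05 for Asns and -0.11 for Chac1. Creb3l1 had -0.795.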

How the data were processed

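RNA sequencing was done on 16 organoid libraries in 4 groups of 4, taken from the labels. Per the labels' protocols, Trizol RNA was made into TruSeq libraries and sequenced on a NovaSeq instrument. HISAT2, featureCounts, DESeq2 and build GRCm39 are listed without versions in the submitters' processing notes. Whether reads were counted by strand is not given in these sources. The table the authors deposited holds a signal: gene reads divided by a size factor per library, called normalized counts here. Multiplied by that factor, 100% of the values gave whole reads within 0.01 read, with 14372111 to 20016836 reads per library. The least different pair of libraries in a group, M10 and M11, had a chi-square of 7.70 per degree of freedom, above sampling noise.

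Values were analysed as log2(value + 1), which understates the change of low genes. Genes had to reach 10 in 4 or more libraries, which left 16509. They were fitted with limma 3.58.1 in R 4.3.3 over all 16 libraries together, with a mean-variance trend, Benjamini-Hochberg adjustment over all of them and a threshold of 0.05; 6797 genes were left out. The averaged hormone effect shares its libraries with the effects in each genotype. Alternatives were edgeR 4.0.16 and DESeq2 1.42.0 on the recovered reads, other scalings, filters and pseudocounts, array weights, a block and left-out libraries.

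Named in full were the members called in any comparison, the sensors, Xbp1, Atf4, Ddit3 and Hspa5. From each wider list came up to 4 genes with the lowest adjusted p under 0.05, and the 10 genes most like Hspa5 were taken. Creb3l1 and the other members given with values are outside that rule and were chosen after their values were seen. The members and lists were chosen with earlier results of these data known. Symbols came from GENCODE M21 for 22484 genes. It gives the exon lengths too. Because it is of another build than the counts, the only coordinates given are those of the promoter stretches, in GRCm38.p6. In it, exons of 11 members overlap another gene.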

Additional observations from a re-analysis of the deposited data

Results flagged for a closer look

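In each group of 4 libraries the lowest or highest value was compared with the rest: it was listed when its gap to the nearest library as a share of the group's range was above Dixon's 95% critical value. That held in 15 of 148 groups over the 37 members, and chance gives about 1 in 20. M8 of the cKO vehicle group accounts for 8 of them. Its normalized counts were low for Dnajb9 (684), Eif2ak3 (491), Hyou1 (2690), Creld2 (506), Pdia6 (4450), P4hb (9498) and Ssr3 (6280), and high for Creb3l1 (807). In control E2/MPA organoids M12 was low for Ern1 (4090) and Pdia6 (6432) and high for Creb3l1 (685). In cKO E2/MPA organoids M16 was low for Ssr1 (3872) and high for Creb3l1 (769). Those 3 libraries have the highest stromal marker means of their groups, and the part of this in the listed values was not tested. Outside them, M6 was high for Ddit3 (363) and M7 low for Sel1l (1558), both in the cKO vehicle group.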

How the results depend on the processing

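Dnajb11, Sdf2l1, Creld2, Sec23b, Dnajc3, Edem1 and Sel1l kept their averaged E2/MPA calls in all 27 alternatives run. In the averaged effect, leaving out 1 library gave 2585 to 3860 genes, 7 to 15 members higher and 0 to 2 lower. In control organoids it gave 759 to 2230 genes and 1 to 5 members higher, in cKO 362 to 827 genes and 0 to 1, between genotypes 0 to 2 genes under vehicle and 0 to 10 under E2/MPA, and 0 for the interaction.

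Under vehicle, the genotype comparison called 2 genes with a filter of 50, 14 with DESeq2, 5 with array weights and 14 without M4, M8, M12 and M16. Under E2/MPA it called 2 with a pseudocount of 8, 185 with DESeq2, 0 with its 2 groups fitted alone, 597 with array weights and 9 without those 4 libraries. The cKO hormone effect gave 1255 genes and 3 members with DESeq2. It gave 878 genes and 6 members with its 2 groups alone, and 1678 genes and 6 members with array weights. The control effect gave 484 genes and 0 members with its 2 groups alone, 2549 genes with array weights and 2210 without M4, M8, M12 and M16, which gave 2 members lower in the averaged effect. The causes were not tested.

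Without M1, M4, M8, M9, M12 and M16 (chosen after seeing the data), the control effect gave 2262 genes and 1 member lower, the cKO effect 2288 genes and 20 members higher, and the averaged effect 21 higher and 2 lower. The genotype comparisons gave 593 genes and 6 members lower under vehicle and 1394 genes and 4 members under E2/MPA, and the interaction 28 genes. Xbp1 turned from 0.08 to -0.45 in the averaged and from 0.01 to -0.71 in the control effect (adjusted p = 0.00146 and 0.00253). Control arms then hold 2 libraries each.

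Libraries 8 numbers apart (M1 and M9, and so on) varied together, with correlations of 0.386 to 0.746. Each of M1 to M8 correlated best with its partner among the 4 libraries of the partner's group, the only ones compared. That is a hint from the data, since the labels do not pair them. With that replicate block the averaged effect gave 6351 genes (38.5% of all, in either direction), 26 members higher and 3 lower. Ern1, Eif2ak3 and Hspa5 became higher (limma, adjusted p = 0.0218, 0.00750 and 0.0143), and Trib3 and Asns lower. The control effect gave 4479 genes (27.1% of all), 13 members higher and 3 lower. The cKO effect gave 3098 genes (18.8% of all) and 14 members higher, and the genotype comparison under vehicle 1 gene. Protein sequence comparisons were not run. Members had at least 189 reads in every library, so depth limits them little, and the spread between libraries limits more.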
